A study of Mus musculus with 4 samples.

Results

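Ribosome biogenesis factors and subunits of RNA polymerase I were followed in Flk-1+ cells that differed in the activity of a Hoxb6 reporter. The genes were taken by symbol: every Rrp, Nop and Utp gene with a number in its name, Polr1a to Polr1e, and Rrs1, Gar1, Fbl, Ncl, Npm1, Dkc1, Nhp2, Bop1 and Pes1. The array carried 41 such genes among 20660 genes with a symbol. Each gene was represented by 1 probe, the one with the highest mean log2 signal over the 4 arrays. The choice of probe thus used signal levels and not differences between fractions. The set of genes itself was chosen with earlier results of these data known, so the set as a whole was given no p-value. In all, 40 of the 41 genes were well above background on all 4 arrays and were tested. The exception was Utp18, a small subunit processome protein, whose only probe was well above background on 0 arrays, at signals of 3.84 and 2.98 in Venus-negative and 3.39 and 2.81 in Venus-positive cells.

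Mouse EB5 embryonic stem (ES) cells with a Venus reporter for Hoxb6, a homeobox gene of trunk mesoderm, were the source of both fractions. They were differentiated on a layer of OP9 stroma until day 6. The cells positive for Flk-1, a receptor encoded by Kdr and found on mesoderm with vascular and blood potential, were sorted into Flk-1+ Venus-negative and Flk-1+ Venus-positive cells, and the RNA of each was hybridised to 2 single-colour Agilent arrays. The labels do not say whether the 2 replicates of a fraction were separate cultures; the p-values then reflect only how far these samples spread, and that spread may be technical. All 4 arrays lay on 1 slide. Both Venus-negative arrays were in column 2 and both Venus-positive arrays in column 3, so that column and fraction cannot be told apart, and replicate 1 was in row 1 and replicate 2 in row 2. Each array had 50.7% to 53.0% of its spots well above background and 0 saturated, and with 4 arrays the precision of all values is limited. Kdr was bright on all 4 arrays (log2 signals of 5.72 and 5.55 in Venus-negative and 6.06 and 6.08 in Venus-positive cells), and Hoxb6 stood at 1.23 and 0.98 against 2.00 and 2.24.

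Ribosomes are built in the nucleolus, where RNA polymerase I transcribes the long precursor of most ribosomal RNAs. Small nucleolar ribonucleoproteins (snoRNPs) modify this precursor, the small subunit processome folds and cuts the part that becomes the 40S subunit, and other factors mature and export the 60S subunit. The output of this pathway is known to be high in growing and proliferating cells, ES cells among them.

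Levels below are log2 processed signals relative to the 75th percentile of each array, so that a value of 0 is the 75th percentile; they are not compared between genes. Differences are Venus-positive minus Venus-negative on the log2 scale, with the moderated standard error (SE) of limma. Since each array was scaled to its own percentile, a change in total RNA per cell leaves no trace in these values, and fewer cells expressing a gene cannot be told apart from less RNA per cell.

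Most of the genes had somewhat lower signals in Venus-positive cells, and no single gene passed the test. Of the 40 tested, 36 had a log2 difference below 0, against 49.6% of all 23544 features (genes and unnamed probes) tested. Their median difference was -0.27, with quartiles of -0.37 and -0.15, beside a median of 0.00 and quartiles of -0.21 and 0.24 over all features. The largest was -0.69, a factor of 1.62, and 0 of the 40 reached 1 in size, as 8.03% of all features did. Across the 40 genes the difference showed little relation to the mean level, with a Pearson's r of -0.07 and a Spearman's rho of -0.05. The 5304 features within the genes' interquartile range of mean signal had a median difference of 0.02.

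With 0 of 40 genes past a Benjamini-Hochberg adjusted p of 0.05 in limma, no single gene was called in either direction (0 higher and 0 lower), against 2.14% of all features (0.777% higher and 1.36% lower). This count depends on the size of the differences: of the 20076 features that differed by no more than 0.69, the largest value of the 40 genes, 0 were called, and the 503 features called had a median absolute difference of 1.67. It also depends on the variance prior, since a signal-dependent prior called 5 of the 40 at the same differences, and 1650 of the 23544 features. It therefore does not show that the levels were equal. At an unadjusted p under 0.05, 17 of the 40 were lower and 0 higher, while 11.4% of all features were lower and 12.3% higher. The count of 17 was 6 with each array centred on its median and 10 with dim probes kept, and it fell with each array left out: to 3 or 8 without the first or the second Venus-negative array, and to 4 without either one of the Venus-positive arrays. Leaving out an array also takes away a residual degree of freedom. The same count was 22 with a signal-dependent variance prior and 21 with centring on features of the genes' middle signal range. It was 20 with model-based background correction, 20 with a replicate block and 19 with probes well above background on all 4 arrays. Under these last settings 5165 to 7599 features had such a p in either direction. With median centring 5421 of 23544 features had one, and with dim probes kept 6540 of 49102. For 32 of the 40 genes both Venus-positive arrays lay below both Venus-negative arrays, which held for 28.4% of all features. For 0 they lay above, which held for 29.1%. The fractions were thus apart for 32 genes in either direction, against 57.5% of all features, and overlapped for the other 8. In all, 24 of the 40 differences were below the lower quartile of all features and 0 above the upper one. Some genes were called lower under alternatives, 5 with a signal-dependent variance prior and 4 with model-based background correction (normexp). In either, 0 of the 40 were called higher. Of all 23544 features, the variance prior called 920 lower and 730 higher, and normexp 638 lower and 537 higher. Rrp9, Utp6, Rrp36 and Pes1 were called in both, and Nop2 with the variance prior alone (adjusted p = 0.0482).

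**Figure D1:**
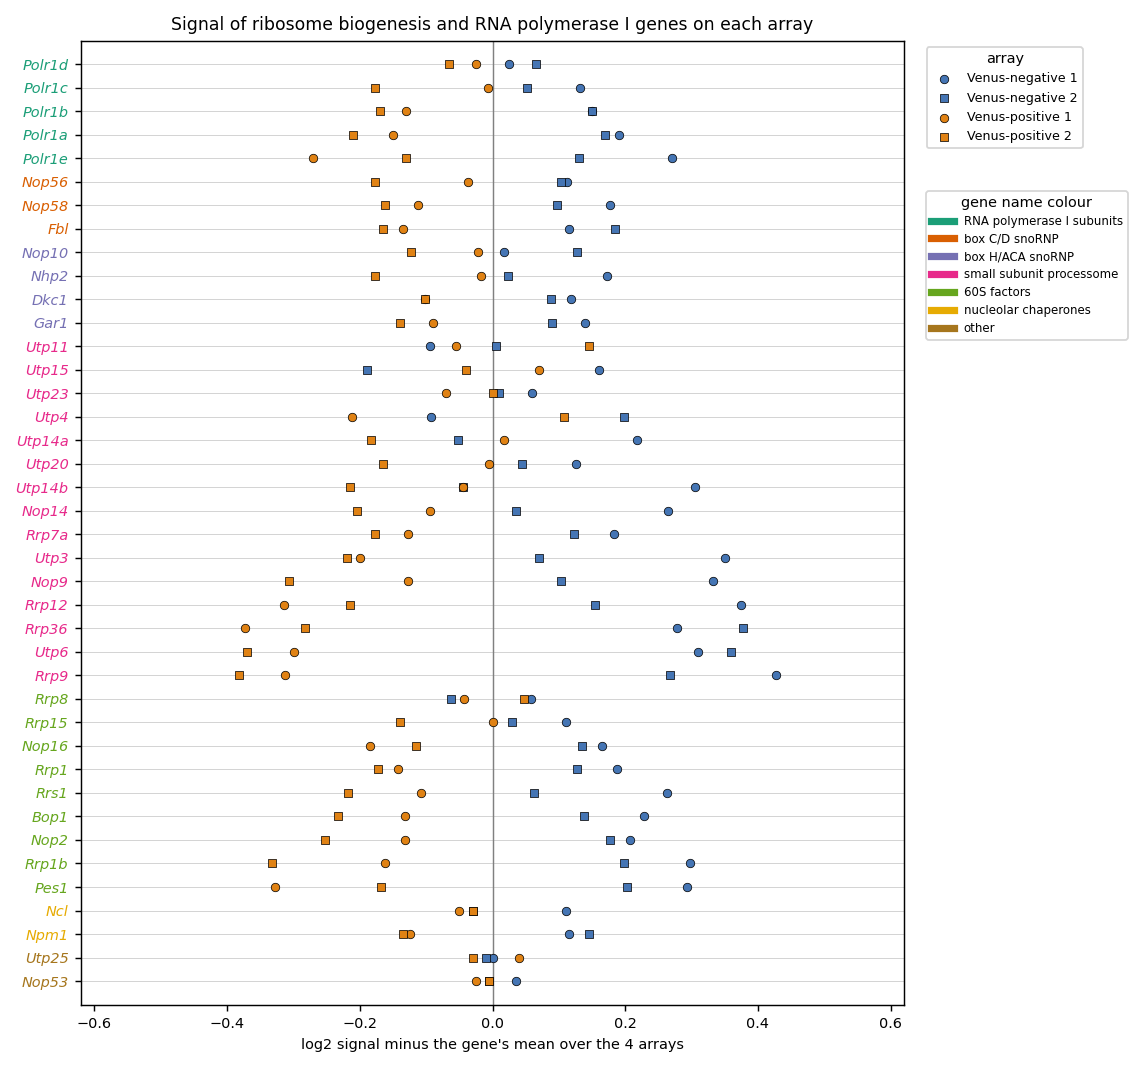
Log2 signal of each of the 40 tested genes on each array, as the deviation from the gene's own mean over the 4 arrays. Blue symbols are Venus-negative and orange symbols Venus-positive arrays, circles are replicate 1 and squares replicate 2, and gene names are coloured by role. For 32 genes both orange symbols lie left of both blue ones.

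Replicates of a fraction lay closer together than the fractions did. Over the 40 genes the Venus-negative pair differed by a median absolute log2 value of 0.087 and the Venus-positive pair by 0.094, but pairs of arrays from different fractions by 0.218 to 0.326. For all features these values were 0.178 and 0.158 within and 0.242 to 0.276 across fractions. The genes' median level was 4.12 and 4.05 in Venus-negative cells, above the 3.90 and 3.81 in Venus-positive cells. Compared within a row of the slide, the median difference was -0.26 in row 1 and -0.25 in row 2, and 35 of the 40 genes were below 0 in both rows.

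Among the 5 measured subunits of RNA polymerase I, all had differences below 0, with a median of -0.30. For all 5 both Venus-positive arrays lay below both Venus-negative arrays, as they did for 28.4% of all features. Polr1a, the largest catalytic subunit, stood at 4.30 and 4.28 in Venus-negative cells and at 3.96 and 3.90 in Venus-positive cells, a log2 difference of -0.36 ± 0.10 SE (adjusted p = 0.144 in limma). Its partner in the active centre, Polr1b, had nearly equal replicates, at 2.55 on both Venus-negative arrays against 2.27 and 2.23 (-0.30 ± 0.10, adjusted p = 0.184). The largest difference of the 5 was that of Polr1e, a peripheral subunit particular to this polymerase, at 2.55 and 2.41 against 2.01 and 2.15 (-0.40 ± 0.12, adjusted p = 0.167). Polr1c and Polr1d are the subunits that this enzyme shares with RNA polymerase III but not with RNA polymerase II, and they had the smallest differences of the 5. Polr1c stood at 5.43 and 5.35 against 5.29 and 5.12 (-0.18 ± 0.12), and Polr1d at 5.24 and 5.28 against 5.19 and 5.15 (-0.09 ± 0.10). A second, dimmer Polr1d probe gave 3.31 and 3.08 against 2.92 and 2.63, a difference of -0.42 ± 0.16, so the small value of this subunit rests on the choice of probe. The 2 probes are annotated to different transcripts of Polr1d.

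The proteins of the box C/D snoRNPs, which methylate the ribose of ribosomal RNA, and of the box H/ACA snoRNPs, which convert uridine to pseudouridine, lay within a narrow range. All 7 had differences below 0 and both Venus-positive arrays below both Venus-negative arrays, which held for 28.4% of all features. In the box C/D particle, Fbl (fibrillarin), the methyltransferase, stood at 4.56 and 4.63 in Venus-negative and 4.31 and 4.28 in Venus-positive cells (-0.30 ± 0.10, adjusted p = 0.187). Its scaffold proteins Nop58 and Nop56 had differences of -0.27 ± 0.10 and -0.22 ± 0.11. In the box H/ACA particle, Dkc1 (dyskerin), the pseudouridine synthase, stood at 2.12 and 2.09 against 1.90 and 1.90 (-0.20 ± 0.09, adjusted p = 0.304). Its partners Gar1, Nhp2 and Nop10 lay between -0.23 and -0.14. The median was -0.27 for the 3 box C/D genes and -0.19 for the 4 box H/ACA genes, a difference in medians that was not tested.

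The small subunit processome held both the largest differences of the whole set and the highest value, that of Utp11. Of 15 tested genes, 13 were below 0, with a median of -0.30. In limma 7 of the 15 were lower at an unadjusted p under 0.05, against 11.4% of all features. The 3 largest belonged to Rrp9, Utp6 and Rrp36, with adjusted p-values of 0.0777, 0.0686 and 0.0774 in limma, all above the threshold. Rrp9, a protein of the snoRNP that guides the first cuts of the precursor, stood at 3.80 and 3.64 in Venus-negative and 3.06 and 2.99 in Venus-positive cells (-0.69 ± 0.11 SE, a factor of 1.62). Utp6, a scaffold protein of the processome, stood at 7.37 and 7.42 against 6.76 and 6.69 (-0.67 ± 0.10, a factor of 1.59). Rrp36, needed for early cleavage of the precursor, stood at 2.78 and 2.88 against 2.13 and 2.22 (-0.65 ± 0.11, a factor of 1.57). For each of these genes the gap between fractions was wider than either pair of replicates. All 3 passed with the signal-dependent prior (adjusted p = 0.0257, 0.0123 and 0.0281) and with normexp (adjusted p = 0.0321, 0.0348 and 0.0365), and over all alternatives it ranged from 0.0257 to 0.277 for Rrp9, 0.0123 to 0.264 for Utp6 and 0.0281 to 0.293 for Rrp36, with the highest values when 1 Venus-positive array was left out.

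Rrp12, a factor in the export of 40S precursors, followed with 1.70 and 1.48 against 1.01 and 1.11 (-0.53 ± 0.13, adjusted p = 0.130). Nop9, Utp3, Rrp7a and Nop14, all of the processome or its precursor particles, lay between -0.44 and -0.30. At the other end, Utp11 was the gene with the highest positive difference, at 5.06 and 5.16 in Venus-negative and 5.10 and 5.30 in Venus-positive cells (0.09 ± 0.12, adjusted p = 0.702). Utp15 and Utp4 belong to the subcomplex that joins the precursor as it is transcribed. Utp15 stood at -0.62 and -0.97 against -0.71 and -0.82 (0.03 ± 0.16), and Utp4 at 4.10 and 4.39 against 3.98 and 4.30 (-0.10 ± 0.18). In both, the spread between replicates was larger than the difference between fractions. Utp20, Utp14a, Utp14b and Utp23 had differences of -0.17, -0.17, -0.26 and -0.07. Utp14b is a retrocopy of the X-linked gene Utp14a, and signal from the 2 may not be fully separable on a probe array. Utp25, another processome protein counted outside this group, was at -0.46 and -0.47 against -0.42 and -0.49 (0.00 ± 0.10).

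**Figure D2:**
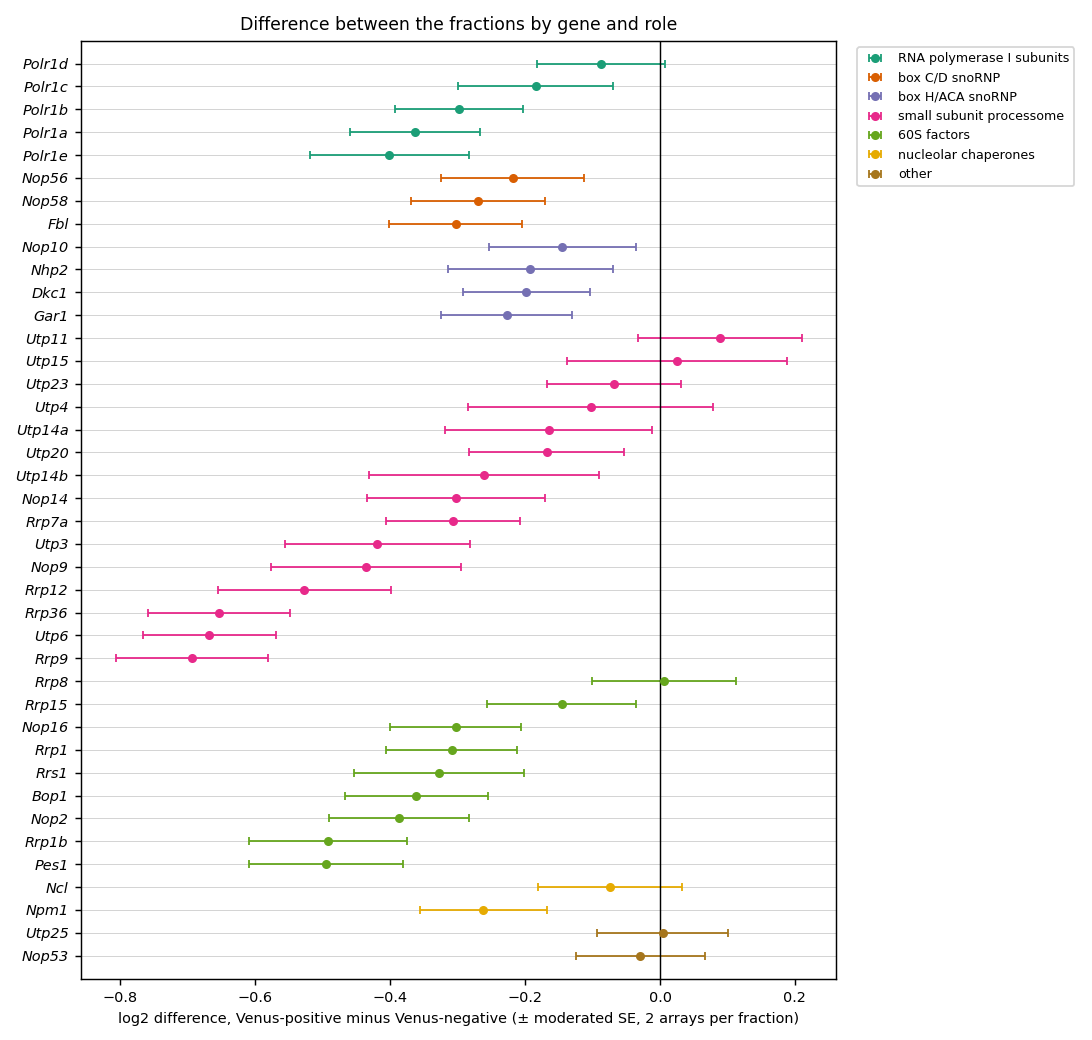
Log2 difference between the fractions for each of the 40 tested genes, grouped and coloured by role; points are the difference of the means of 2 arrays per fraction and bars the moderated SE. Rrp9, Utp6 and Rrp36 lie farthest to the left, between -0.69 and -0.65, and Utp11 farthest to the right, at 0.09.

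Factors of the 60S subunit had a median difference of -0.33 over 9 genes, the lowest of the role groups. Of the 9 genes, 8 were below 0, and 6 were lower at an unadjusted p under 0.05 in limma, against 11.4% of all features. Pes1 and Bop1 form, with Wdr12, a complex needed to process the precursor of the large subunit RNA. Pes1 stood at 4.04 and 3.95 in Venus-negative and 3.42 and 3.58 in Venus-positive cells (-0.50 ± 0.11, adjusted p = 0.121), and a second Pes1 probe gave -0.33 ± 0.12. Bop1 stood at 4.88 and 4.79 against 4.52 and 4.42 (-0.36 ± 0.11, adjusted p = 0.165). Wdr12, which the symbol rule did not take, had a difference of -0.30 ± 0.10 (adjusted p = 0.194). The 3 partners thus had differences of one sign and similar size, none of them past the threshold.

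Rrp1b, a nucleolar protein that also binds chromatin, stood at 2.14 and 2.04 against 1.68 and 1.51 (-0.49 ± 0.12, adjusted p = 0.126), and its paralog Rrp1 at 6.42 and 6.36 against 6.09 and 6.06 (-0.31 ± 0.10, adjusted p = 0.181). Nop2, which methylates cytosine in the large subunit RNA, stood at 6.14 and 6.11 against 5.80 and 5.68 (-0.39 ± 0.10, adjusted p = 0.148). Rrs1, Nop16 and Rrp15 had differences of -0.33, -0.30 and -0.15. Rrp8, a nucleolar methyltransferase, was the exception, at 0.91 and 0.79 against 0.81 and 0.90 (0.01 ± 0.11). Nop53, which brings the RNA exosome to 60S precursors and was counted outside this group, was at 4.14 and 4.10 against 4.08 and 4.10 (-0.03 ± 0.10). In both genes the difference between fractions was smaller than the larger gap between replicates.

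Npm1 (nucleophosmin) and Ncl (nucleolin) are abundant nucleolar chaperones of histones and RNA. On its brightest probe Npm1 stood at 8.96 and 8.99 in Venus-negative and 8.72 and 8.71 in Venus-positive cells (-0.26 ± 0.09, adjusted p = 0.217). Its other 4 probes gave -0.02, -0.04, -0.04 and -0.12, each with an SE of 0.10, so the difference seen on the brightest probe was not found at that size on the others. The probe at -0.02 is annotated to the same transcript as the brightest, and the rest to another transcript of Npm1. For Ncl the dimmer probe showed the larger difference. Its brightest probe, at 7.54 and 7.40 against 7.38 and 7.40, overlapped between fractions (-0.07 ± 0.11), whereas the dimmer probe gave 2.27 and 1.99 against 1.76 and 1.47 (-0.51 ± 0.17, adjusted p = 0.198 over all probes). For 9 genes another probe was measured, 12 such probes in all. All 12 had a difference of the same sign as the brightest probe of their gene, with a median gap of 0.17 and a largest gap of 0.44, that of Ncl.

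**Figure D3:**
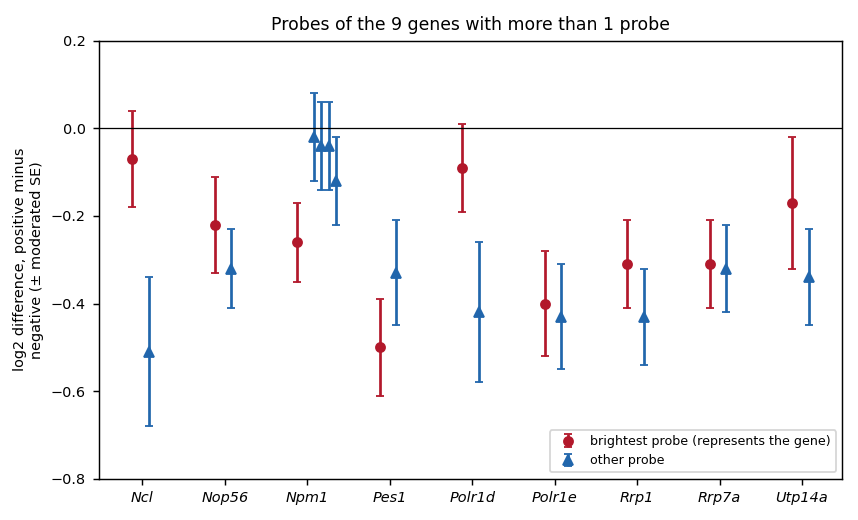
Log2 difference between the fractions for every measured probe of the 9 genes with more than 1 probe; red circles are the brightest probe, which represents the gene, blue triangles the other probes, and bars the moderated SE. All points lie below 0; the 4 other Npm1 probes lie nearer to 0 than the brightest one, and the other probes of Ncl and Polr1d lie farther from it.

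Because most of these genes had differences of one sign, their promoters were searched for the E-box CACGTG, which Myc and related factors bind, and for the ETS motif CCGGAAG. Both strands were searched, the E-box being its own reverse complement, and the motifs do not overlap. RefSeq windows (GRCm38.p6) of 250 bases before to 50 bases after the start were at hand for 32 of the 41 genes. The E-box was present in 8 of the 32 genes, against 8.1% of all 27025 genes with a window, and the ETS motif in 10 of the 32, against 9.9%. The windows of these genes were also richer in G and C, with a median of 57.0% against 52.7% and a median of 19 CpG sites against 7, and the part of base composition in these shares was not tested. The 7 tested genes with an E-box had a median difference of -0.26 and the 24 without one -0.25; with and without the ETS motif the medians were -0.23 and -0.27. The 250 bases before the start are shown for Rrp9 and Rrp36, the genes with the largest differences that had a window, and for Nop2 and Rrp7a, which have an E-box before the start. Capitals mark the E-box and the ETS motif on either strand.
Rrp9, chr9:106477059-106477308, plus strand: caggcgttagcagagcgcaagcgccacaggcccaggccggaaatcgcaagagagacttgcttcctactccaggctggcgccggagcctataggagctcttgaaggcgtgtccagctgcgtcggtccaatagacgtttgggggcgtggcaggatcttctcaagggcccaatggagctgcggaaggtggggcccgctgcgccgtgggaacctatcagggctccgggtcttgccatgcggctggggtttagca
Rrp36, chr17:46674327-46674576, minus strand: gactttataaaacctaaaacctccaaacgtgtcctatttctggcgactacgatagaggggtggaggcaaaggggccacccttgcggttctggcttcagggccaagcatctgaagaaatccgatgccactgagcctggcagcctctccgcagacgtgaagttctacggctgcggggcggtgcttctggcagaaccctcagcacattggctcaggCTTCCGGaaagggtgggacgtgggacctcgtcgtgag
Nop2, chr6:125131633-125131882, plus strand: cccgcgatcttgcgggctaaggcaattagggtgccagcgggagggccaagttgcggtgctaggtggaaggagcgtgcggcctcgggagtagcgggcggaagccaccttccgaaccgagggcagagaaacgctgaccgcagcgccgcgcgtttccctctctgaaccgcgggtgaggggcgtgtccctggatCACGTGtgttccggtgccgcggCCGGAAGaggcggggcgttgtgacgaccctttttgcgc
Rrp7a, chr15:83122802-83123051, minus strand: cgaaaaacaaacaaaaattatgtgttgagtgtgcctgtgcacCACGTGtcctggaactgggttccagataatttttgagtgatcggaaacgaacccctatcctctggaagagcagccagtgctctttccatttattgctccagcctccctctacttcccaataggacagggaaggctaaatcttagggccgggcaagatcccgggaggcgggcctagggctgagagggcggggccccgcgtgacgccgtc
Rrp9 had neither motif in its window, Rrp36 had the ETS motif alone, Nop2 had both, and Rrp7a had the E-box alone. A match is a description of the letters and no evidence of binding.

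The rest of the pathway, listed by role and without the genes above, was also mostly below 0. Of 125 genes tested, 107 were below 0, with a median of -0.20. None passed in limma over all features (0 of 125), against 2.14% of all features. At an unadjusted p under 0.05, 28 of the 125 were lower and 1 higher, while 11.4% of all features were lower and 12.3% higher. By role, the median was -0.21 for 17 genes of RNA polymerase I transcription, -0.22 for 38 of the small subunit processome and 40S maturation, -0.24 for 46 of 60S maturation and export, -0.16 for 10 of snoRNP assembly and -0.15 for 14 of the RNA exosome and rRNA trimming. The largest differences in the first of these were those of Taf1a, a subunit of the promoter-selectivity factor of RNA polymerase I (-0.62 ± 0.16, adjusted p = 0.145), and Tcof1, the nucleolar protein treacle (-0.35 ± 0.15). Taf1b and Polr2h were its highest, at 0.21 ± 0.14 and 0.07 ± 0.10.

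For the small subunit, the lowest values were those of Nol10 (-0.60 ± 0.13, adjusted p = 0.113) and the helicase Ddx49 (-0.49 ± 0.18), and the highest those of Riok3, a kinase of late 40S maturation (0.35 ± 0.11, adjusted p = 0.187), and Ddx52 (0.08 ± 0.12). In the 60S list the helicase Ddx27 stood at 4.33 and 4.26 in Venus-negative and 3.63 and 3.62 in Venus-positive cells (-0.67 ± 0.10, adjusted p = 0.0662), the lowest adjusted p of the pathway, followed by Npm3 (-0.58 ± 0.17). The highest there were Urb2 (0.13 ± 0.17) and Efl1 (0.10 ± 0.10). Of the snoRNP assembly genes, Snu13 and the helicase Ruvbl1 were lowest (-0.31 ± 0.12 and -0.28 ± 0.10) and Pih1d1 and Nufip1 highest (0.19 ± 0.10 and 0.02 ± 0.10). Of the exosome genes, the nuclease Dis3 and the subunit Exosc5 were lowest (-0.31 ± 0.10 and -0.30 ± 0.15) and the nuclease Xrn2 and the subunit Exosc10 highest (0.16 ± 0.10 and 0.02 ± 0.10).

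**Figure D4:**
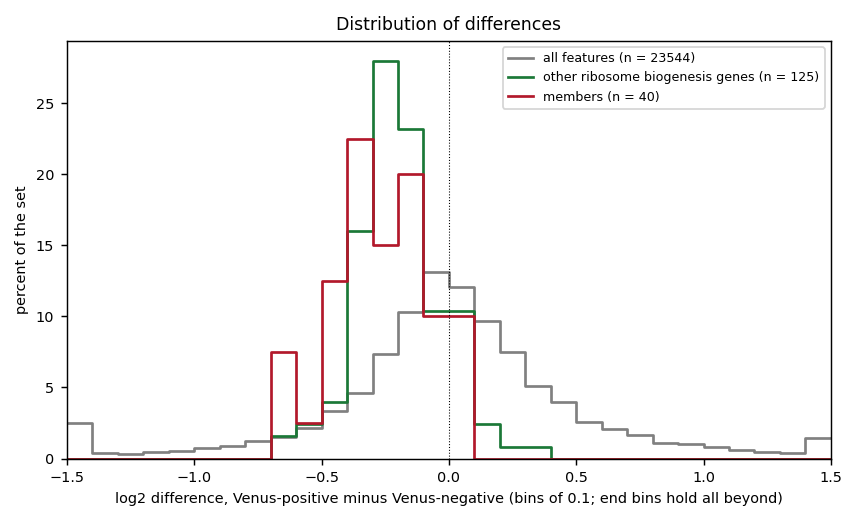
Distribution of the log2 difference between the fractions, as the percent of each set in bins of 0.1, for all 23544 features (grey), 125 other ribosome biogenesis genes (green) and the 40 genes described here (red); the bins at both ends hold all values beyond them. The red and green outlines lie mostly left of 0, with medians of -0.27 and -0.20, and the grey outline is centred on 0.

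Other families of broadly expressed genes, chosen after the values were seen, also had medians below 0, nearer to 0 than that of the 40 genes. Of 85 cytosolic ribosomal protein genes, 72 were below 0, with a median of -0.11. Of 38 proteasome subunits, 35 were below 0, with a median of -0.17. The 77 mitochondrial ribosomal proteins had a median of -0.04, with 50 below 0. The subunits of RNA polymerase II (11 genes) and RNA polymerase III (10 genes) had medians of -0.11 and -0.18. Both Venus-positive arrays lay below both Venus-negative arrays for 31 of 38 proteasome, 45 of 85 cytosolic and 28 of 77 mitochondrial ribosomal protein genes. So they did for 6 of 11 RNA polymerase II and 6 of 10 RNA polymerase III genes, against 28.4% of all features. In this count (32 of 40) and in the share below 0 (90%, against 92.1% of proteasome genes), the 40 genes were close to the proteasome genes. In limma 0 genes of these families passed over all features, as 2.14% of all features did. At an unadjusted p under 0.05, 9 of 85 ribosomal protein, 2 of 38 proteasome, 4 of 77 mitochondrial ribosomal protein and 3 of 10 RNA polymerase III genes were lower. At that p 1 gene, of RNA polymerase III, was higher. Of all features, 11.4% were lower and 12.3% higher, so the first 3 of these counts did not exceed the share over all features. Whether the ribosome biogenesis genes differ from these families was not tested.

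Most markers of other cells in the culture were below 0 too. Of 10 markers of undifferentiated ES cells, 8 were below 0 and 1, Tdgf1, fell past the threshold (-4.89 ± 0.14, adjusted p = 0.0246 in limma), and their summed linear level (signal over the 75th percentile) was 78.9 and 51.15 in Venus-negative and 31.7 and 21.7 in Venus-positive cells. Pou5f1 and Dppa5a differed by -2.38 ± 0.34 and -2.47 ± 0.40. Klf4 and Nanog, the 2 above 0, were at 0.51 ± 0.21 and 0.23 ± 0.18. Zfp42, Sox2, Esrrb, Utf1 and Tcl1 lay between -0.73 and -0.23, with SEs of 0.15 to 0.57. All 10 were well above background on all 4 arrays. Of 11 tested markers of the OP9 feeder, 9 were below 0 (0 past the threshold), and the list's summed level was 73.45 and 62.3 against 60.9 and 39.98; Dcn was well above background on 2 arrays only and was not tested. The order of the 4 arrays by the ES sum, and likewise by the OP9 sum, was the same as their order by the median level of the ribosome biogenesis genes. The OP9 sums of 62.3 and 60.9 were close, however. That sum rested mostly on Col1a2, at 5.36 and 5.26 against 5.23 and 4.83. Lum, at -0.33 and -2.43 against -0.46 and -2.98, differed more between replicates than between fractions. Postn and Col3a1 were above 0, at 1.61 ± 0.65 and 0.10 ± 0.39. In Venus-negative cells the ES sum rested mostly on Dppa5a, at log2 levels of 5.83 and 5.08 against 3.36 and 2.62 in Venus-positive cells. In Venus-positive cells Klf4 added most to it, at 4.08 and 3.57, against 3.33 and 3.30 in Venus-negative cells. Of 9 blood markers, 6 were below 0 (0 past the threshold), with summed levels of 56.0 and 113.8 against 54.7 and 60.5. The blood sum did not follow the order of the ES and OP9 sums. The part of these cells in the difference was not tested. Of the 8 markers of the labelled cells, 5 were above 0 and 3 below. Tek, Cdh5 and Pecam1 were at 1.53 ± 0.17, 1.56 ± 0.42 and 1.42 ± 0.19. Hoxb6 and Kdr were at 1.01 ± 0.16 and 0.44 ± 0.11. Pdgfra, Etv2 and Tal1 were at -1.93 ± 0.21, -1.5 ± 0.26 and -0.2 ± 0.11. Pdgfra and Tek passed the threshold (adjusted p = 0.0474 and 0.0478 in limma). The part of the labelled cells' state in the difference was not tested either.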

How the data were processed

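RNA of 2 Flk-1+ fractions was measured on 4 single-colour arrays. The deposited scanner output gives an intensity for every spot; per the file headers it was made with Agilent Feature Extraction 10.10.1.1, whose processed signal has background subtracted and no scaling between arrays. The authors' deposited value table has the same processed signal, multiplied by a constant for each array (2.15, 2.44, 1.98 and 2.11) and with genes not centred; the origin of these constants is not given in the sources used here. Column medians of that table were 41.0 and 42.3 in Venus-negative and 41.0 and 38.1 in Venus-positive cells.

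Control spots and outlier spots (152 to 196 per array) were left out. From the log2 of the processed signal the 75th percentile of the array was subtracted, taken over 59305 non-control spots (signals of 347.2 to 429.2), and spots of a probe were averaged. Of 37881 accessions, 21465 were matched to a symbol through RefSeq (assembly GRCm38.p6); 27235 probes had a symbol and 28446 had none. The probe brightest on average stood for each gene. Features were tested where both arrays of 1 fraction or the other were well above background, which left 13922 genes and 9622 unnamed probes.

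Differences were tested in R 4.3.3 by limma 3.58.1 (lmFit and eBayes, 2 residual and 1.8 prior degrees of freedom), with Benjamini-Hochberg adjustment over all features. The procedure was tested on simulated data; its power at differences as small as those of the members is low. All genes of the rule are named. Of other pathway genes, the 2 with the largest difference in each direction per list are named. Single genes outside this rule (Wdr12, and Pou5f1, Dppa5a, Nanog, Klf4, Col1a2, Lum, Postn and Col3a1 among markers) were chosen after their values were seen. The members, lists and alternatives were chosen with earlier results of these data known. Alternatives concerned centring, background correction, the authors' values, the filter, the variance prior, the replicate block, the probe of a gene and leaving out each array. Promoter windows were from RefSeq.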

Additional observations from a re-analysis of the deposited data

How the results depend on the processing

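In no alternative was a member called higher, and the members' median stayed below 0, at -0.30 to -0.23 when 1 array was left out. It was -0.20 with each array centred on its median, where the median of all features was 0.07. With arrays centred on features of the members' middle signal range (an alternative added after the data were seen) it was -0.33. Relative to the median of all features it was -0.27 in both, as in the reported fit. This was fixed in advance, since centring shifts all features of an array alike. With dim probes kept the median of all features was -0.17, and the members' median of -0.27 lay 0.10 below it. The signal-dependent variance prior called 5 members (5 lower), 5 other pathway genes and 1650 features, and normexp, run on median spot signals as chosen after the data were seen, called 4 members (4 lower), 1 other pathway gene and 1175 features. The reported fit called 503 features. It called 0 with dim probes kept and 0 without any single array, each of the 4 in turn (3480 to 4533 at an unadjusted p under 0.05, and 6540 with dim probes kept). In the reported fit 63.6% of called features were lower, with median centring 51.7% (351 higher and 375 lower).

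Same-numbered arrays, which share a row, deviated together (r = 0.414 over all features, 0.479 over the members), but with 2 pairs this does not show pairing. The fit with a replicate block called 935 features, and 7599 features had an unadjusted p under 0.05, 20 members among them. The members' median was -0.27, as it had to be, since the block leaves the differences unchanged. This fit called 0 members and 0 other pathway genes, and other lists were not refitted with it.

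Among single members' values under alternatives, 574 kept their direction and side of the threshold, 9 passed and 17 turned sign, on 7 genes near 0. With median centring Nop53 was at 0.04 and Utp23 at 0.00. Rrp8 was at -0.02 with quantile normalization, -0.04 with normexp and -0.06 with centring on the middle signal range. Utp15 was at -0.03 with normexp and -0.04 with that centring. Utp25 was at 0.00 on the authors' values as deposited and -0.06 with that centring. When 1 array was left out, Rrp8 ranged from -0.05 to 0.06, Utp15 from -0.15 to 0.20, Utp25 from -0.03 to 0.04, Utp11 from -0.01 to 0.19 and Utp4 from -0.26 to 0.06. Where a call or sign changed with a setting, the cause was not tested. The authors' values centred on the 75th percentile give the reported fit by construction. Keeping dim probes, the stricter filter, the variance prior and the replicate block also leave each member's difference as it was. Under these settings no sign could turn.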

Other observations

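Genes of the Myc family, whose products bind E-boxes and which are known as regulators of ribosome biogenesis, lay on both sides of 0. Of 8 tested, the 3 below 0 were Myc, Mycn and Mycl, and the 5 above 0 were Max, their common partner, and Mxd1, Mxd3, Mxd4 and Mnt, which compete with them for it. The median of all 8 was 0.07, and 0 passed in limma over all features. At an unadjusted p under 0.05, 1 was higher and 1 lower, against 12.3% and 11.4% of all features. Myc stood at 2.69 and 2.78 in Venus-negative and 2.49 and 2.80 in Venus-positive cells, and Mycn at 3.73 and 3.60 against 3.66 and 3.51, so that the fractions overlapped for both. The largest differences were those of Mycl (-1.26 ± 0.42 SE, adjusted p = 0.193) and of Mxd3, a Myc antagonist (0.74 ± 0.22, adjusted p = 0.166).

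Of 12 cell cycle genes tested, 8 were above 0, with a median of 0.38, and 0 passed in limma. At an unadjusted p under 0.05, 5 of the 12 were higher and 3 lower, against 12.3% and 11.4% of all features. The 6 genes of G2 and mitosis in the list, Mki67, Top2a, Ccnb1, Cdk1, Plk1 and Aurka, lay between 0.65 and 0.91. Of the 6 genes of the G1/S transition and DNA replication, Mcm3 and Rrm2 were at 0.11 and 0.12, and Mcm5, Pcna, Mcm2 and Ccne1 at -0.21, -0.28, -0.30 and -0.76. This grouping was made after the values were seen, and the difference between the groups was not tested. Of 9 dissociation stress genes, 5 were above 0, with a median of 0.01.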
